A study of Homo sapiens with 40 samples.

Results

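SCG5, CYB561A3 and DEFB1 were followed through 40 RNA sequencing libraries of HepaRG cells, a human hepatic line whose differentiated cultures hold hepatocyte-like colonies among primitive biliary cells. They are 3 of the 56568 named genes in the deposited tables, and they hold 31 of the 234960 transcripts: 9 for SCG5, 21 for CYB561A3 and 1 for DEFB1. They were picked by name because their levels had moved strongly with PCB 126 in these libraries, although none belongs to the enzyme families that dioxin-like compounds are known to induce. Their PCB 126 values are therefore given as a description with no test, and tests are kept for the herbicide groups, for isoform use in those groups and for genes around and related to the 3.

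The 8 groups had 5 libraries each. All cultures were kept from day 8 to day 14, for 6 days, in a test medium with 1% DMSO, and the control received the solvent alone. PCB 126, a dioxin-like polychlorinated biphenyl that activates the aryl hydrocarbon receptor, was given at 100 pM, 10 nM or 1 µM. Glyphosate, a herbicide, was given at 10 µg/L, 1 mg/L or 0.1 g/L, and Roundup, a commercial herbicide that contains glyphosate, at 10 µg/L. The same 5 control libraries served every comparison. All libraries came from 1 cell line, nothing in the labels says that they were separate cultures, and p-values then measure only the spread between libraries. Replicate numbers are names and not pairs.

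SCG5 encodes secretogranin V, also called 7B2, a granin-family protein of neuroendocrine secretory granules and the chaperone of the prohormone convertase PCSK2. CYB561A3 encodes a cytochrome b561 of late endosomes and lysosomes, a membrane protein that passes electrons from ascorbate to ferric iron. DEFB1 encodes beta-defensin 1, a cationic antimicrobial peptide that epithelia secrete constitutively. In the GRCh38 coordinates of the tables, SCG5 lies on the plus strand at chr15:32641676-32697098 and CYB561A3 on the minus strand at chr11:61348745-61362299.

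The sequences around 4 annotated starts are shown. Most of the signal of SCG5 was assigned to transcripts annotated to begin inside the gene. That of CYB561A3 was assigned to a pair of starts near its 5′ end. Each run is 300 bases long, from 250 bases before the first base to 50 bases from it on, 5′ to 3′ on the strand of the gene. The SCG5 RefSeq start window is chr15:32641460-32641759 and the window at the inner start of ENST00000475752 is chr15:32684190-32684489, both on the plus strand. The CYB561A3 windows are chr11:61362234-61362533 (upstream) and chr11:61361833-61362132 (downstream), both on the minus strand. The RefSeq windows are credited to RefSeq on GRCh38.p14, and the inner window was read from GRCh38. Capitals would mark GCGTG or its reverse complement CACGC, the core of the dioxin-responsive element, and no window holds one.
SCG5 RefSeq start: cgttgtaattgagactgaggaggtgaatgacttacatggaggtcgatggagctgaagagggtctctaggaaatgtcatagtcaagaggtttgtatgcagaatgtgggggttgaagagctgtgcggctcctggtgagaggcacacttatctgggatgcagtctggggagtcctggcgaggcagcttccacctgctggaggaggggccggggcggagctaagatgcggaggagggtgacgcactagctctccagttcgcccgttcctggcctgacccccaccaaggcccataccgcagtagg
SCG5 inner start: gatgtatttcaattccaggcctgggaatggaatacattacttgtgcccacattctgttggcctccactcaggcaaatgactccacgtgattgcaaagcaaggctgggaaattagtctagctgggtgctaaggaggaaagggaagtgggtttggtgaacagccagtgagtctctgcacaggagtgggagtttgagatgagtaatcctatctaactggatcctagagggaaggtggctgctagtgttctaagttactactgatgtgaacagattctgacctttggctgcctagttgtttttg
CYB561A3 upstream start: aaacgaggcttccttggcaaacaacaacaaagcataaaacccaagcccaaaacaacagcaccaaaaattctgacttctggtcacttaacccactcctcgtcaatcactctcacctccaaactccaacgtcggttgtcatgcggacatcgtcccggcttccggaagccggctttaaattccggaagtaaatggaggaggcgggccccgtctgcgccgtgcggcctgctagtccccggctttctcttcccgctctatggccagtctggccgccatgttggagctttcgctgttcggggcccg
CYB561A3 downstream start: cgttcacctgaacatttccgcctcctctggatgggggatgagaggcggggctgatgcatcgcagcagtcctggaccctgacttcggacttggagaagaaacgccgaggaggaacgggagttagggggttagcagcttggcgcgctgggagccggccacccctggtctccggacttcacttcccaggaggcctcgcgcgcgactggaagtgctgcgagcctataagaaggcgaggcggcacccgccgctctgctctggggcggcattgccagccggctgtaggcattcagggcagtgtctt

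Searched on both strands, the core was present in 36.5% of 35116 RefSeq promoter windows of this length and in 81.1% of windows that reach from 1500 bases before to 500 bases after the start. The longer windows held 2 cores at the SCG5 RefSeq start, 1 at its inner start and 4 at the upstream start of CYB561A3. The overlapping window of its downstream start held the same 4. A count of 4 or more was found in 30.7% of all promoters, and the promoter of CYP1A1, the classic target of the receptor, held 10. Overlapping matches were counted separately. Counted from the first base of each start, the nearest core lay at -412 for the SCG5 inner start (chr15:32684028-32684032) and at -271 for the CYB561A3 upstream start (chr11:61362550-61362554). They are shown in capitals within 30 bases.
SCG5 core: tcctgccagaggcGCGTGaggctgtagtgc
CYB561A3 core: gggcagtattcctCACGCttcccaatccac
A match describes the letters and is no binding site, and the windows of DEFB1 were not used here.

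Over 30% of read pairs were multiply aligned in 9 libraries, of which 1 was a control, 2 were at 10 nM, 2 at 1 µM and 4 in herbicide groups. For 2 others, control replicate 2 and 100 pM replicate 4, the share is unknown, and they were kept. Levels are in FPKM, the fragments of a transcript scaled to its length and to the mapped fragments of the library. Summed FPKM ranged from 255292 to 513059 over the 40 libraries, and 71169 to 118592 transcripts were above 0. At 1 µM the median log2 difference of all 9755 genes tested was -0.26. CYP1A1 averaged 2.33 FPKM in control, 86.2 at 100 pM, 268 at 10 nM and 235 at 1 µM. At 100 pM it spread from 1.09 to 319 between libraries, and replicate 5 was the highest.

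SCG5 rose with each step of PCB 126. Its FPKM, summed over transcripts, was 9.22, 8.30, 7.52, 10.01 and 4.10 in the 5 control libraries. At 100 pM it was 16.1, 14.6, 9.23, 12.4 and 18.8. Thus 4 of 5 libraries stood above every control, and the groups overlapped through the third library. At 10 nM the values were 47.0, 34.1, 13.5, 32.2 and 31.5, and at 1 µM they were 46.3, 57.98, 60.2, 52.9 and 27.8. At both concentrations every library lay above every control, while 10 nM and 1 µM overlapped with each other. The mean was 7.83 ± 2.29 (SD, n = 5) in control and 49.0 ± 13 (SD, n = 5) at 1 µM, a ratio of 6.26. Differences of log2(FPKM + 1) from control were 0.80, 1.84 and 2.50 at the 3 concentrations, with an SE of 0.30. This scale understates the change of low values.

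CYB561A3 followed the same course at a higher level. Its FPKM in control was 16.7, 16.9, 14.8, 11.3 and 7.65. At 100 pM it was 26.8, 20.9, 14.0, 18.3 and 35.5, again with 4 of 5 libraries above all controls. At 10 nM it was 82.3, 54.5, 19.2, 42.7 and 79.4, and the lowest of these still exceeded the highest control. At 1 µM it reached 52.7, 116, 107, 126 and 78.1. The mean went from 13.5 ± 3.95 (SD, n = 5) in control to 95.9 ± 30.01 (SD, n = 5) at 1 µM, a ratio of 7.13, and the log2 differences were 0.72, 1.86 and 2.73 (SE 0.35). CYP1A1 had its highest mean at 10 nM, whereas the means of SCG5 and CYB561A3 were 1.55 and 1.72 times higher at 1 µM than at 10 nM. For SCG5, CYB561A3 and CYP1A1 alike, the range at 1 µM overlapped that at 10 nM. CYP1A1 ran from 92.1 to 377 FPKM at 10 nM and from 85.2 to 389 at 1 µM, so the order of its means is not resolved.

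DEFB1 went down. Its FPKM was 20.95, 22.7, 21.4, 14.4 and 10.3 in control and 15.6, 18.9, 23.5, 16.1 and 7.87 at 100 pM, so the lowest concentration lay over the control range. At 10 nM it was 4.77, 5.59, 5.59, 9.60 and 1.19, below every control. At 1 µM it was 1.96, 2.28, 2.86, 1.17 and 1.35, which left 17.9 ± 5.33 in control against 1.92 ± 0.687 (SD, n = 5), a ratio of 9.32 of control over exposed. The log2 differences were -0.14, -1.69 and -2.67 (SE 0.34). Without replicate 5 of the 100 pM group the difference at that concentration was 0.08. In bulk RNA, fewer cells of a type and less RNA per cell cannot be told apart.

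**Figure D1:**
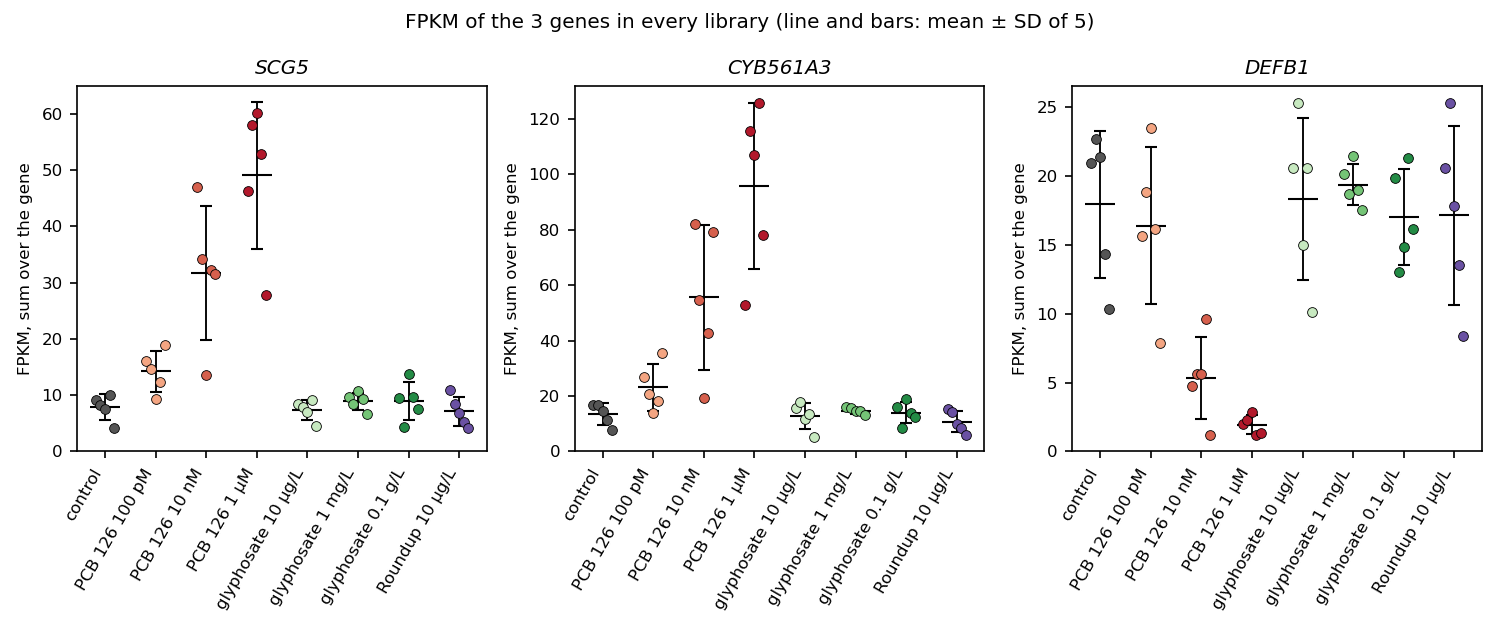
FPKM summed over each gene (y axis) for the 5 libraries of each of the 8 groups (x axis), with the mean and SD. At 10 nM and 1 µM of PCB 126, SCG5 and CYB561A3 lie above and DEFB1 lies below all 5 control libraries, and the herbicide groups lie around the control.

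The separation from control at 10 nM and 1 µM is what the genes were picked for, and nothing is read from it. Beside it, 0.267% of the 9755 genes tested lay above all controls at 10 nM and 0.246% below, and at 1 µM the shares were 0.707% and 1.64%. At 100 pM they were 0.113% and 0.0513%, and 0.0% of genes were called by limma there (1.19% with an unadjusted p under 0.05). Among all genes tested at 1 µM, 8 had a higher log2 difference than CYB561A3, 11 a higher one than SCG5 and 5 a lower one than DEFB1. Without the libraries above 30% multiply aligned pairs, the differences at 1 µM were 2.58 for SCG5, 2.89 for CYB561A3 and -2.77 for DEFB1. At 10 nM they were then 1.98, 1.90 and -1.48. Several of those libraries had the lowest or nearly the lowest value of their group, such as control replicate 5 and 10 nM replicate 3 for SCG5 and CYB561A3. The part of alignment in these values was not tested.

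The SCG5 signal was assigned almost wholly to short transcripts that are annotated to begin inside the gene. They share exon sequence with the full-length transcript, so the split of fragments is an estimate of the assembler. No transcription start was mapped here. ENST00000475752, with 3 exons and 867 bases, starts 42764 bases from the first base of the gene, and its first exon begins 117 bases before exon 4 of the full-length ENST00000300175. GENCODE v44 types it as a retained-intron transcript. Its FPKM was 6.48, 6.10, 4.92, 6.30 and 3.21 in control and 39.5, 49.8, 51.2, 46.0 and 21.3 at 1 µM. Every library at 1 µM thus lay above the control range, as did every library at 10 nM, where the values were 37.2, 27.9, 9.48, 24.2 and 25.1. At 100 pM they were 12.7, 11.6, 6.71, 10.5 and 15.4. Here, too, each library lay above the highest control, by 6.71 against 6.48 in replicate 3, while the gene sum overlapped the control. The share of all transcripts that lay above every control is not given here, and nothing is read from these separations.

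ENST00000498607, a second transcript that begins at the fourth exon, averaged 1.49 ± 0.585 FPKM in control and 4.35 ± 0.84 at 1 µM (SD, n = 5). Together these 2 transcripts held 88.7% ± 4.65 of the SCG5 sum in control and 93.2% ± 2.55 at 1 µM, and 84.4% to 92.1% in the other groups. ENST00000498069, which begins in the second intron, averaged 0.856 FPKM in control and 2.07 at 1 µM. The full-length coding transcript ENST00000300175 averaged 0.0855 FPKM in control and 0.538 at 1 µM. The 5 transcripts that begin at the first or second exon summed to 0.0855 FPKM in control and 1.05 at 1 µM, where they held 2.15% ± 0.125 of the gene sum. Of the 9 transcripts, 1 was at 0 in every library and 4 others stayed under a mean of 0.5 FPKM in all groups.

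**Figure D2:**
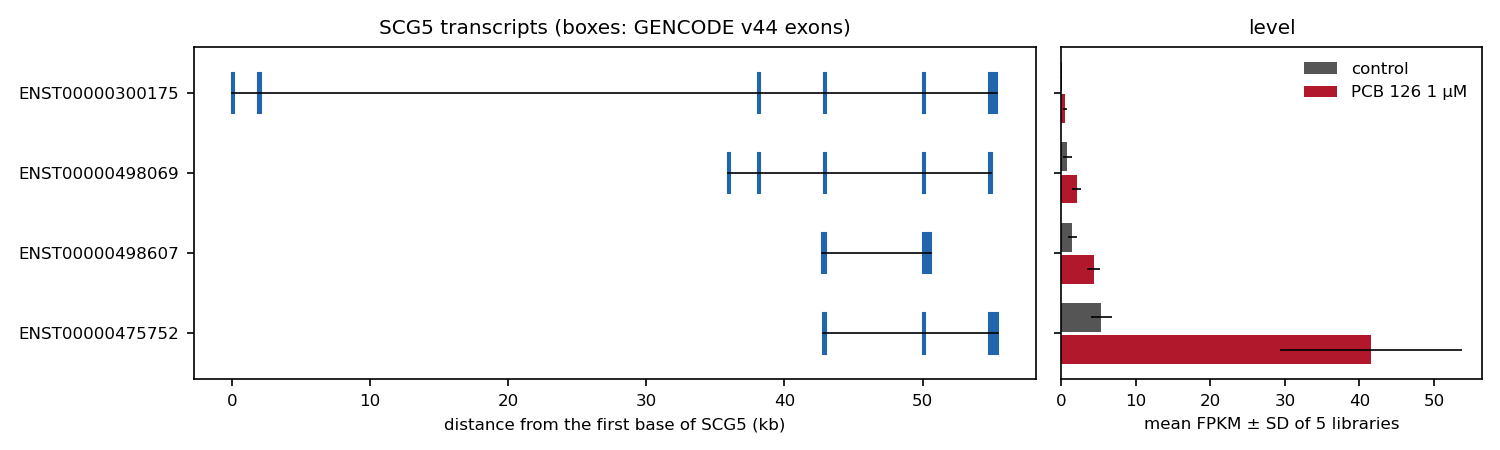
Exons of the 4 described SCG5 transcripts against distance from the first base of the gene in kb (left), with mean FPKM and SD of 5 libraries in control and at 1 µM PCB 126 (right). The transcript with the highest level, ENST00000475752, begins 42764 bases into the gene.

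CYB561A3 was carried by long coding transcripts. ENST00000294072 averaged 10.7 ± 3.72 FPKM in control, 17.7 ± 6.97 at 100 pM, 39.9 ± 17.7 at 10 nM and 58.6 ± 29.4 at 1 µM (SD, n = 5). At 1 µM its libraries held 17.4, 74.2, 72.4, 89.5 and 39.4, and replicate 1 was the low one. ENST00000426130, which begins at the same start with 8 exons in place of 7, was 0.0284, 0.197, 2.02, 0.0146 and 0.0347 in control. At 1 µM it was 15.8, 17.4, 11.4, 13.2 and 27.6. It was thus above every control library at 1 µM, a separation whose share over all transcripts is not given here. At 100 pM, however, all 5 libraries were below 0.1, and at 10 nM they ran from 0.0559 to 6.58. Its share of the gene sum was 20.3% ± 11.6 at 1 µM and 5.64% ± 5.23 at 10 nM.

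ENST00000294072 held 78.5% ± 7.78 of the CYB561A3 sum in control, 76.2% ± 4.78 at 100 pM, 72.2% ± 6.80 at 10 nM and 57.3% ± 15.6 at 1 µM (SD, n = 5). All transcripts of the upstream start together (first bases 61362248 to 61362299) held 83.9% ± 8.07 in control and 77.7% ± 8.71 at 1 µM. The lower share of ENST00000294072 at 1 µM thus went mostly with a higher share of ENST00000426130 from the same start. ENST00000447532, the main transcript of the downstream start, averaged 0.584 FPKM in control with 3 of 5 libraries at 0, and 12.9 at 1 µM. The downstream start (first bases 61361840 to 61361913) held 8.56% ± 8.59 in control and 15.8% ± 3.11 at 1 µM. The start of ENST00000294072 rests on the annotation used by the authors, since GENCODE v44 begins this transcript at the downstream start. The split of fragments between overlapping transcripts is an estimate of the assembler.

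The other 5 described transcripts of CYB561A3 stayed below a mean of 2 FPKM. ENST00000537364 averaged 1.30 at 1 µM, ENST00000540139 averaged 1.15, and the retained-intron transcripts ENST00000536452 and ENST00000542411 reached 0.848 and 0.688 in their highest group. ENST00000536915, from an inner start, averaged 1.68 at 1 µM, of which a single library gave 6.25. Of all 21 transcripts, 3 were at 0 in every library and 10 others stayed under a mean of 0.5 FPKM. DEFB1 has 1 transcript, ENST00000297439, with 2 exons and 478 bases, so its sum is that transcript. It lies on the minus strand of chromosome 8 from 6870575 to 6878022.

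**Figure D3:**
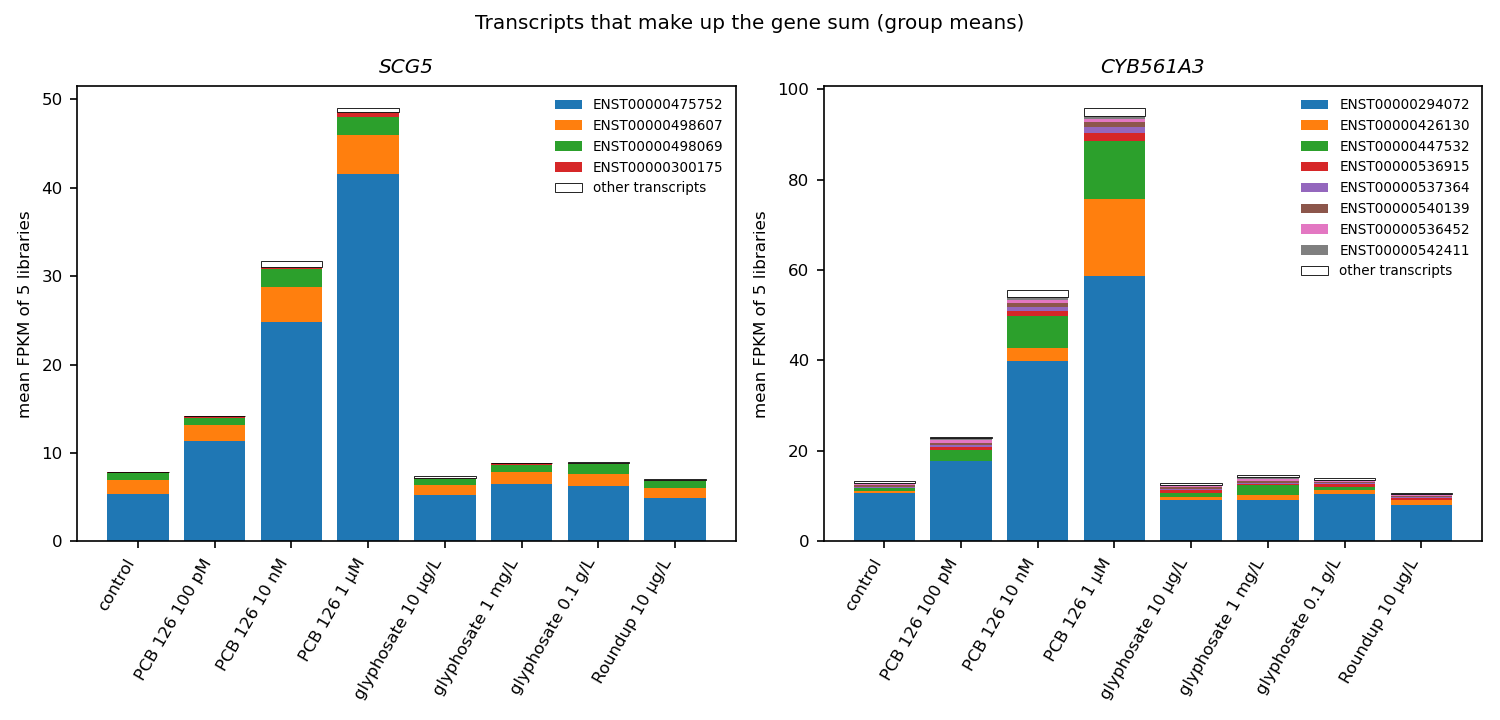
Mean FPKM of 5 libraries (y axis) stacked by transcript for SCG5 and CYB561A3 in the 8 groups (x axis). ENST00000475752 fills most of every SCG5 bar, and ENST00000426130 averages 17.1 FPKM at 1 µM PCB 126 against 2.93 at 10 nM.

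The herbicides were the contrast that did not choose these genes, although they share the control libraries with it. None of the 3 genes was called against control in any herbicide group. SCG5 ran from 4.15 to 13.7 FPKM over the 20 herbicide libraries, with group means of 7.41, 8.91 and 8.93 at rising glyphosate and 7.10 with Roundup. CYB561A3 had group means of 12.8, 14.7, 14.0 and 10.8 and DEFB1 of 18.3, 19.4, 17.0 and 17.1, in the same order. Every group overlapped the control range in all 3 genes. Of all genes tested, 0.0105%, 0.147%, 0.042% and 0.021% lay above all controls and 0.042%, 0.0315%, 0.042% and 0.021% below, in that order. In limma, the 12 log2 differences lay between -0.31 (CYB561A3 with Roundup) and 0.20 (SCG5 at 1 mg/L glyphosate), with adjusted p between 0.902 and 1. Of the 12, 0 had an unadjusted p under 0.05. Of the 9533 genes tested, 0.0% were called in each of the 4 comparisons, and 0.997%, 1.31%, 0.881% and 1.73% had an unadjusted p under 0.05.

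The intervals show what 5 libraries could resolve. For SCG5 the 95% interval of the log2 difference was -0.61 to 0.50 at 10 µg/L glyphosate, -0.35 to 0.75 at 1 mg/L, -0.41 to 0.70 at 0.1 g/L and -0.69 to 0.41 with Roundup. For CYB561A3 the interval that reached farthest from 0 was -0.89 to 0.27 with Roundup. For DEFB1 they ran from -0.64 at the lowest to 0.70 at the highest. Differences within these intervals remain possible, and a p above the threshold does not show equal levels. Calls were adjusted over 9533 genes, so larger changes could also have gone uncalled.

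**Figure D4:**
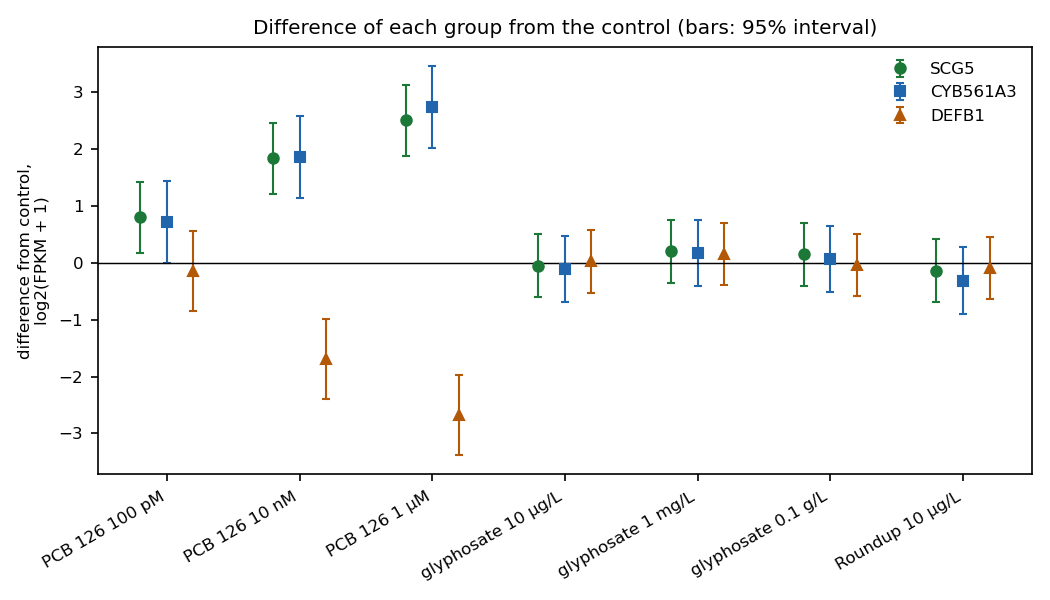
Difference of mean log2(FPKM + 1) from control (y axis) for the 3 genes in the 7 exposed groups (x axis), with 95% intervals from limma. The herbicide groups lie between -0.31 and 0.20, and the 1 µM PCB 126 group at 2.50, 2.73 and -2.67.

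Roundup and glyphosate were compared at the same 10 µg/L. The difference of Roundup from glyphosate in mean log2(FPKM + 1) was -0.08 for SCG5, -0.20 for CYB561A3 and -0.12 for DEFB1. None exceeded the spread within groups, with p = 0.754, 0.563 and 0.714 in exact permutation tests (2-sided). With the 12 comparisons against control, these made 15 exact tests on gene levels, of which 0 had a p under 0.05. The smallest p that 5 against 5 libraries allow is 0.00794.

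Isoform use in the herbicide groups was tested on the share of the most abundant transcript. ENST00000475752 held 70.1% ± 6.22 of the SCG5 sum in control, 70.4% ± 9.41, 72.8% ± 6.05 and 68.4% ± 9.51 at rising glyphosate, and 66.4% ± 11.1 with Roundup (SD, n = 5). ENST00000294072 held 72.5% ± 10.9, 62.9% ± 14.99 and 74.9% ± 8.51 of CYB561A3 at rising glyphosate and 72.2% ± 15.2 with Roundup. The widest gap, 15.7 percentage points below control at 1 mg/L, had an exact permutation p of 0.103, the smallest of 10 such tests. For the 12 described transcripts of SCG5 and CYB561A3, 60 exact permutation tests of levels gave 2 with an unadjusted p under 0.05 and none after adjustment over the 60 (smallest adjusted p = 0.898). One of the 2 was ENST00000447532 at 1 mg/L, which averaged 2.31 FPKM against 0.584 in control (exact permutation p = 0.0159). The other was ENST00000540139 with Roundup, at 0.197 against 0.358 (exact permutation p = 0.0397). In limma on all transcripts, 4 members passed the filter on variance, and 0 of 16 herbicide differences passed the threshold or an unadjusted p of 0.05.

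At 1 µM, 2 neighbours of CYB561A3 rose. Of 12 genes within 100 kb, 7 passed the filter on variance, 2 were called higher and 0 lower (limma), where 0.646% of all genes tested were called higher and 1.22% lower. The median log2 difference of the 7 was 0.60, against -0.26 for all genes. The 7 include AP003108.3 (1.41), which passed the filter only in the PCB 126 table, where 6 genes passed in the herbicide table. The median is therefore a description and no support for the neighbourhood. VWCE, which encodes a secreted protein with von Willebrand factor C and EGF domains and lies 53321 bases away on the same strand, was 3.80, 3.65, 3.76, 3.75 and 0.711 FPKM in control. At 1 µM it was 14.5, 10.8, 13.9, 9.33 and 11.4, a log2 difference of 1.73 (SE 0.31, limma adjusted p = 0.00254), with 5 of 5 libraries above all controls. TMEM138, a ciliary membrane protein gene, lies head to head with CYB561A3 on the other strand and overlaps its 5′ end. It was 6.80, 6.77, 5.05, 5.27 and 3.74 in control and 6.11, 21.3, 22.2, 17.2 and 10.8 at 1 µM, a log2 difference of 1.24 (SE 0.32, limma adjusted p = 0.0397).

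The call of TMEM138 was marginal. It was lost when any 1 of the 5 controls, or 1 µM replicate 2, 3 or 4, was left out (limma adjusted p up to 0.102). Without the multiply aligned libraries the log2 difference was 1.61 (limma adjusted p = 0.000189). VWCE kept its call with each library left out. AP003108.3, an antisense gene inside CYB561A3, averaged 0.605 FPKM in control and 4.13 at 1 µM and was not called (limma adjusted p = 0.0784). It passed the filter on variance only in the PCB 126 table. TKFC, which overlaps the 3′ end on the other strand, averaged 15.5 and 14.1. The kit kept strand, but use of strand in the counting is not given in the sources used here, so fragments of overlapping genes on opposite strands may not have been told apart.

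**Figure D5:**
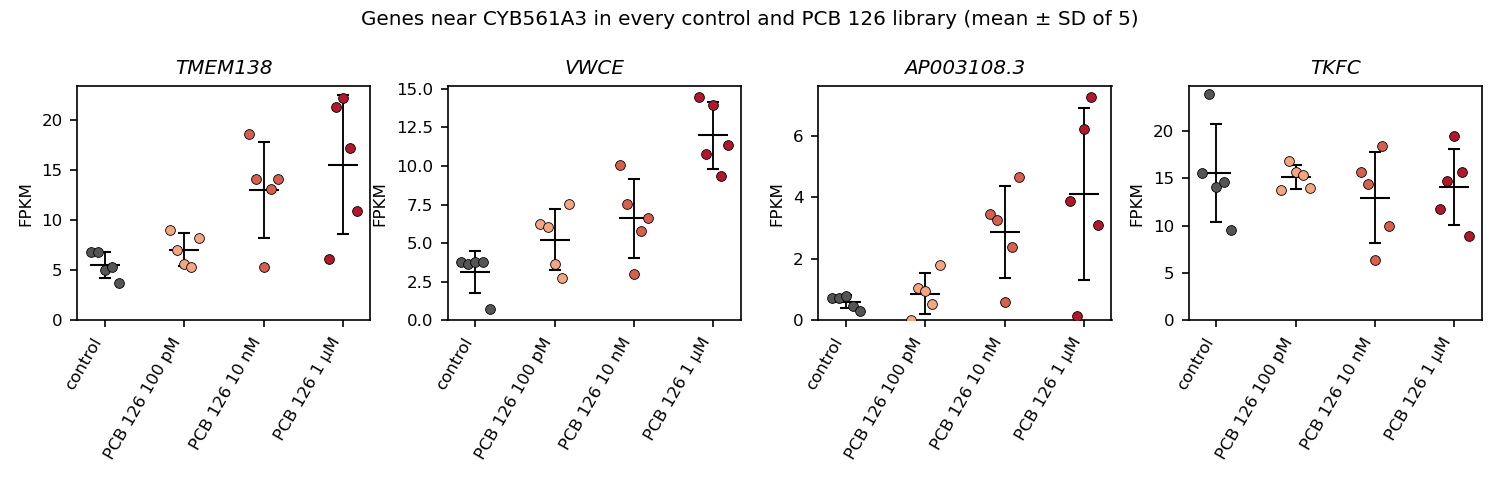
FPKM (y axis) of 4 genes near CYB561A3 in the 5 libraries of the control and of each PCB 126 group (x axis), with mean and SD. VWCE at 1 µM lies above all controls, TMEM138 and AP003108.3 each have 1 low library at 1 µM, and TKFC averages 15.5 in control and 14.1 at 1 µM.

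DDB1, CPSF7 and SDHAF2, the other tested neighbours of CYB561A3, had log2 differences of 0.60, -0.28 and -0.01 at 1 µM and were not called. Around SCG5, 2 of 11 genes passed the filter and 0 were called (1 with an unadjusted p under 0.05). ARHGAP11A, 1727 bases upstream, averaged 4.26 in control and 2.22 at 1 µM (limma adjusted p = 0.192), and FMN1 averaged 7.06 and 9.49. The 10 genes around DEFB1, among them DEFA1, DEFA4 and DEFA6 for alpha-defensins, were below 1 FPKM in every library, and 4 were at 0 throughout.

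No gene of prohormone processing was called with SCG5. Of 20 granin and prohormone-processing genes, 10 were below 1 FPKM in every library, 8 were tested and 0 were called at 1 µM by limma, with 3 at an unadjusted p under 0.05. Of all genes tested, 1.87% were called and 13.6% had an unadjusted p under 0.05. With a covariate for library size and no shrinkage of variances, 3 were called. PCSK2, the convertase that secretogranin V serves, averaged 0.0338 FPKM in control and 0.00386 at 1 µM. CPE, a carboxypeptidase that trims prohormones, averaged 23.5 and 24.8. PCSK5 averaged 4.42 and 8.41 and PCSK6 33.3 and 64.2, with limma adjusted p of 0.123 and 0.305. Neuroendocrine markers were near absent in every group, with 9 of 10 below 1 FPKM in every library. The summed level of the 10 ran from 0.614 to 2.99 in control and from 0.683 to 5.73 at 1 µM, and the chromogranins CHGA and CHGB averaged 0.309 and 0.0125 at 1 µM.

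Of 28 genes of the cytochrome b561 family and cellular iron handling, 21 were tested at 1 µM and 0 were called by limma, with 6 at an unadjusted p under 0.05 (3 called with the library-size covariate). Their median log2 difference was -0.37, against -0.26 for all genes. CYB561, the chromaffin-granule relative, averaged 11.3 FPKM in control and 9.40 at 1 µM, and CYBRD1, the duodenal ferric reductase, 14.8 and 10.2. TF, the iron carrier transferrin, averaged 454 and 201 (limma adjusted p = 0.0525). The ferritin chains FTH1 and FTL had log2 differences of 0.08 and -0.05. HAMP, the iron hormone hepcidin, averaged 0.0409 and 0.0418 FPKM.

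Of 40 defensins and other epithelial antimicrobial genes, 27 were below 1 FPKM in every library and 9 of these were at 0 throughout. DEFB4A, the inducible beta-defensin 2, was at 0 in every control and PCB 126 library and at most 0.0884 in a herbicide library. Of the 12 tested at 1 µM, 1 rose and 1 fell, against 0.646% and 1.22% of all genes, and 9 had an unadjusted p under 0.05, against 13.6% of all genes. S100A8, a subunit of calprotectin, rose from 0.71 ± 0.615 to 9.06 ± 5.35 FPKM (SD, n = 5), a log2 difference of 2.44 (SE 0.41, limma adjusted p = 0.00101), with 5 of 5 libraries above all controls. It passed the filter on variance only in the PCB 126 table, through the groups where it was high, so its place among the 12 is no support for the list. With no filter the limma adjusted p was 0.0215. PGLYRP2, a peptidoglycan amidase made by the liver, fell from 5.80 ± 1.61 to 1.98 ± 1.10, by 1.25 on the log2 scale (limma adjusted p = 0.0404). Its call was lost without any 1 of control replicates 1 to 4 or 1 µM replicates 1, 3 or 5, and without the multiply aligned libraries (limma adjusted p up to 0.134). LCN2, lipocalin 2, averaged 40.2 and 8.18 with an SD of 55.7 in control, and was not called (limma adjusted p = 0.264). At 10 nM, 0 genes of these 3 lists were called by limma (1, 0 and 2 with an unadjusted p under 0.05). There, 0.205% of all genes were called (0.144% higher, 0.0615% lower) and 4.85% had an unadjusted p under 0.05.

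Some cell type markers fell at 1 µM. The summed level of 12 hepatocyte markers ran from 14636 to 21352 FPKM in control and from 5736 to 14586 at 1 µM, and 2 of 12 fell (TTR and FGB, limma adjusted p = 0.00797 and 0.0259), where 1.22% of all genes were called lower. An unadjusted p under 0.05 was found for 7 of the 12. The 10 biliary or progenitor markers summed to 279 to 536 in control and 165 to 285 at 1 µM with 0 of 4 tested called (3 with an unadjusted p under 0.05). KRT19 led them at 303 and 164 FPKM, while EPCAM was near 0 in control (mean 0.00802, median 0) and at 0 at 1 µM. Of 6 tested fibroblast markers 1 fell, COL3A1, from 12.5 to 0.576 (limma adjusted p = 2.29e-05), where 1.22% of all genes were called lower. Of the 6, 5 had an unadjusted p under 0.05 and 3 had a difference above 0. The summed list ran from 41.1 to 92.5 in control and from 50.96 to 190 at 1 µM. Endothelial markers summed to at most 5.25 FPKM and leukocyte markers to at most 18.2 in any control or PCB 126 library, with 0 called by limma in either list at 1 µM (1 and 0 with an unadjusted p under 0.05). The part of cell composition in the 3 genes was not tested.

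The genes most like the 3 across all 40 libraries were found by Pearson's r of log2(FPKM + 1) among 9260 genes. The value is a description, since the libraries share treatments and depth. They include the PCB 126 libraries on which the 3 genes were picked. Likeness to one another and to other genes that moved with PCB 126 thus follows from the choice and is no support. SCG5 was closest to CYB561A3 (r = 0.970), to TIPARP (0.959), an ADP-ribosyltransferase gene induced through the aryl hydrocarbon receptor, and to TRIM15 (0.955), of the tripartite-motif family. CYB561A3 was closest to TIPARP (0.986), SCG5 (0.970) and PLEKHF1 (0.969), which encodes an endosomal protein. TIPARP averaged 4.58, 30.7 and 53.3 FPKM in control, at 10 nM and at 1 µM, also higher at 1 µM than at 10 nM. DEFB1 was closest to COL3A1 (0.963), to PFKFB3 (0.951), a regulator of glycolysis, and to PRKG1 (0.948), a cGMP-dependent kinase. Of 6 tested genes of the dioxin receptor battery, which serve as a reference, 5 were called higher at 10 nM and 5 at 1 µM, where 0.144% and 0.646% of all genes were. Of the 6, only 4 passed the filter on variance in the herbicide table. The others, CYP1A2 among them, passed only in the PCB 126 table, so these counts are a reference and no support. CYP1A1 stood at rank 17 for SCG5 and 22 for CYB561A3 (r = 0.888 for both).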

How the data were processed

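Directional libraries were made from total RNA after removal of rRNA. The authors aligned reads with HISAT2 (GRCh38) and used StringTie with Ensembl release 89 (tool versions not given in the sources used here) to estimate transcript levels, and deposited FPKM per transcript with 1 column for each library. Some deposited columns hold values below 0, which FPKM cannot take, and their unit was recorded as a score. The 4 and 6 such values in the PCB 126 and herbicide tables were set to 0, and these columns were then used as FPKM. FPKM are not counts, so counting error is unknown, and 5 libraries per group limit the precision.

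FPKM were summed per gene name. Genes with a variance above 1 (9755 in the PCB 126 table, 9533 in the herbicide table) were fitted as log2(FPKM + 1) with limma 3.58.1 in R 4.3.3, all groups of a table in 1 fit and no covariates, with Benjamini-Hochberg adjustment over all genes and a threshold of 0.05. Single values were compared with 2-sided exact permutation tests (252 splits, SciPy 1.17.1). The fit was tested on simulated data. The members and lists were chosen with earlier results of these data known. Named genes were the members, transcripts with a mean of at least 0.5 FPKM in any group, the 3 genes most like each member, genes within 100 kb, genes called in related lists with PCSK2, CPE, CYBRD1, CYB561, HAMP and DEFB4A, and CYP1A1. PCSK5, PCSK6, TF, FTH1, FTL, LCN2, CHGA, CHGB, KRT19, EPCAM and VGF were named after their values were seen. Alternatives were another pseudocount, filter, scaling, model, set of libraries, block and way of summing.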

Additional observations from a re-analysis of the deposited data

Results flagged for a closer look

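Libraries that stand apart were sought in 120 groups of 5, which were the 3 gene sums and 12 transcripts in 8 groups each. A library was marked when its gap to the nearest other exceeded 0.71 of the group's range. This was so in 12 groups, and chance marks about 1 in 20 if values are normally distributed. Levels near 0 are not. ENST00000536915 in control and ENST00000447532 with Roundup had 4 of 5 libraries at 0. There the only library above 0 is always marked, so the 12 cannot be set against that share. None of the marks fell on a gene sum. For SCG5, ENST00000300175 had a library at 0.415 FPKM with 0.1 g/L glyphosate, and ENST00000498069 had one at 1.86 with Roundup. For CYB561A3, ENST00000426130 had a library at 2.02 in control and at 2.72 with 10 µg/L glyphosate, while ENST00000447532 had one at 0.833 with Roundup. ENST00000536915 was marked in 5 groups, at 0.541 in control, 5.07 at 10 nM and 6.25 at 1 µM of PCB 126, 0.855 at 1 mg/L glyphosate and 1.12 with Roundup. ENST00000542411 had a library at 1.98 at 1 µM and at 0.718 with 0.1 g/L glyphosate. All 12 were the highest of their group.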

How the results depend on the processing

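The direction of SCG5, CYB561A3 and DEFB1 against control at 10 nM and 1 µM of PCB 126 held under every alternative tried. The genes were picked for these differences, and every library there lay outside the control range. A change of direction was thus hardly possible, and its absence is no support. At 1 µM, CYB561A3 was 2.21 by its most abundant transcript alone, and DEFB1 was -3.16 with a pseudocount of 0.1. At 100 pM DEFB1 ran from -0.32 to 0.080 with 1 library left out. FPKM hold no counts, so depth limits could not be computed, and the cause of these shifts was not tested.

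Herbicide differences lay near 0 and changed sign with small changes of method. For SCG5, 10 µg/L glyphosate gave 0.021 with 75th percentile scaling, and Roundup gave 0.045 with that scaling, 0.032 with quantile normalization and 0.030 with the library-size covariate. For CYB561A3, 1 mg/L gave -0.00398 with the covariate, -0.00603 without the multiply aligned libraries and -0.15 by its most abundant transcript, which gave -0.00523 at 0.1 g/L. For DEFB1, 1 mg/L gave -0.017 without those libraries and 0.1 g/L gave 0.13 with 75th percentile scaling. DEFB1 with Roundup gave 0.10 with that scaling, 0.10 with quantile normalization, 0.084 with the covariate and 0.10 without those libraries. With 1 library left out, SCG5 ran from -0.24 to 0.092 at 10 µg/L, from -0.042 to 0.34 at 0.1 g/L and from -0.32 to 0.011 with Roundup. CYB561A3 ran from -0.28 to 0.15 at 10 µg/L, -0.01 to 0.26 at 1 mg/L and -0.11 to 0.21 at 0.1 g/L. DEFB1 ran from -0.15 to 0.21, -0.017 to 0.25, -0.21 to 0.055 and, with Roundup, -0.27 to 0.12. Roundup against glyphosate ran from -0.24 to 0.065 for SCG5 and -0.30 to 0.10 for DEFB1.

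In percentage points, the share of ENST00000475752 ran from -3.36 to 3.06 at 10 µg/L, -3.95 to 1.77 at 0.1 g/L and -7.06 to 0.40 with Roundup, and from -7.36 to 0.10 for Roundup against glyphosate. That of ENST00000294072 ran from -4.74 to 5.59 for Roundup against glyphosate and from -19.7 to -10.9 at 1 mg/L, where the exact permutation p was 0.0476 without replicate 2 of that group.

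Genes called moved most. At 10 nM, 20 became 69 with 75th percentile scaling, 173 with quantile normalization, 114 with the covariate, 56 without the multiply aligned libraries and 43 with all 40 libraries in 1 fit. At 1 µM, 182 became 590, 1123, 830, 520 and 298. The percentage called higher was 70 at 10 nM but 96.4 without the multiply aligned libraries, and 34.6 at 1 µM but 45.4 with quantile normalization and 54.7 with the covariate. With 1 library left out, calls ran from 118 (without control replicate 4) to 366 (without control replicate 5) at 1 µM and from 15 to 35 at 10 nM, with 35 and 32 without replicates 3 and 4 of that group. In the herbicide groups they ran from 0 to 1 at 10 µg/L, 0 to 2 at 1 mg/L, 0 to 1 at 0.1 g/L and 0 to 1 with Roundup. Calls were 1 at 10 µg/L with no filter, 1 at 0.1 g/L with either scaling, and 3 at 0.1 g/L and 2 with Roundup when only 2 groups were fitted.

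At 10 nM, 1 granin gene was called with quantile normalization, and 1 neighbour with either scaling, with the covariate and without the multiply aligned libraries. At 1 µM, granin genes called were 2 with 75th percentile scaling, 3 with quantile normalization, 3 with the covariate and 2 without the multiply aligned libraries. Iron genes were 2, 5 and 3 with the first 3 of these and 1 with all 40 libraries. Antimicrobial genes were 4 and 5 with the scalings, 1 with no filter and 1 with 2 groups. Neighbours were 4, 5 and 4 with the scalings and the covariate, and 1 with a pseudocount of 0.1, with no filter and with 2 groups. With 1 library left out, granins ran from 0 to 1, iron genes from 0 to 1, antimicrobial genes from 1 to 3 and neighbours from 1 to 2.

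The labels hold no replicate numbers, and correlations of same-numbered deviations ran from -0.05 to 0.18. With the run of library numbers as a replicate block, 37 genes were called at 10 nM (37.8% higher) and 357 at 1 µM (23.2% higher), with 1 iron gene.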

Other observations

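The levels of the 3 genes correlated positively over the libraries without PCB 126. Over the 25 control and herbicide libraries, r of log2(FPKM + 1) was 0.862 between SCG5 and CYB561A3, 0.705 between SCG5 and DEFB1 and 0.862 between CYB561A3 and DEFB1. Over the 15 PCB 126 libraries it was 0.944, -0.784 and -0.861. These are descriptions over libraries that differ in depth and share treatments, and no test was made. CYP1A1 had an r of 0.325 with SCG5 and 0.372 with CYB561A3 over the 25 libraries. CYP1A1 was at 0 in 2 control libraries, in 4, 3 and 1 at rising glyphosate and in 3 with Roundup. These r thus rest largely on values at or near the floor and cannot be compared with those between the 3 genes.

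VGF, a granin-family precursor, was below the filter on variance. It averaged 0.511 FPKM in control and 1.04 at 1 µM, where 5 of 5 libraries lay above all controls. The shares of genes above all controls given earlier cover only genes that passed the filter, so none can be set beside this. VGF was named after its values were seen and was not tested, and nothing is read from its separation.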
